A study of Homo sapiens with 6 samples.

Results

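The RAB GTPases are a family of small GTP-binding proteins that direct vesicle traffic, and 61 of the 74852 loci in the deposited expression table of Sam68-depleted breast cancer cells carry the symbol of a human RAB gene. The loci were chosen by symbol alone (RAB, a number and at most one letter from A to D), so that no measured value entered the choice, and 51 of them had enough reads to be tested. The cells are MDA-MB-231, an established human line of triple-negative breast cancer, which lacks the estrogen and progesterone receptors and ERBB2 amplification. The cells of all 6 libraries went through 2 rounds of siRNA transfection with a lipid reagent and, by the sample labels, were collected 24 h after the second round, whereas the methods of the study give a later harvest. In si-CTRL (3 libraries) the siRNA was a non-targeting control, and in si-SAM68 (3 libraries) it was a pool of 4 siRNAs against KHDRBS1, the gene encoding the RNA-binding protein and splicing regulator Sam68. The comparison asked which transcripts changed in abundance when Sam68 was transiently depleted.

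A RAB protein cycles between a GDP-bound form, held in the cytosol by a carrier protein, and a GTP-bound form on a membrane. Exchange factors, many of them with a DENN domain, load GTP, TBC domain proteins stimulate its hydrolysis, and effectors bound by the GTP form carry out budding, transport along the cytoskeleton, tethering and fusion. Each compartment has its own RABs, and closely related paralogs often share a compartment. Attachment to membranes depends on geranylgeranyl groups that a prenyl transferase adds to cysteines at the very end of the protein, after an escort protein has presented the RAB to the enzyme.

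The 4 siRNAs of the pool are shown first, because they define the treatment and because their seeds can be looked for in RAB transcripts. The listed strand has the sequence of the mRNA, and each matched the coding sequence of KHDRBS1 on chromosome 1 (build GRCh38), in exons 9, 2, 5 and 3, in that order. Capitals mark bases 12 to 18, the stretch that pairs with guide positions 2 to 8.

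siRNA 1: gcacccauaugGACGUUAu

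siRNA 2: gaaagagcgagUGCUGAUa

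siRNA 3: uaugauggaugAUAUCUGu

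siRNA 4: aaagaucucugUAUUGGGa

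The stretch marked in capitals was found in the 3'UTR of 15 of the 51 tested RAB genes (29.4%), and in 3822 of the 13248 tested genes with an annotated 3'UTR (28.8%), so that RAB genes held it about as often as other genes. The median log2 fold change was -0.09 for the RAB genes with a match and -0.09 for the 36 without. Of the 5 RAB genes that passed the test described below, RAB3B, RAB15 and RAB31 had 1 match each, RAB30 had 3 and RAB6B had none. The matched bases are in capitals in the stretches below (GRCh38, positions of the capitals, RAB31 on the plus strand and the others on the minus strand).

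RAB3B, siRNA 2, chr1:51910701-51910707: tctcttggTGCTGATgccttggg

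RAB15, siRNA 4, chr14:64946329-64946335: agaagttaTATTGGGcagtggct

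RAB31, siRNA 1, chr18:9861996-9862002: ttgaatatGACGTTAccttgcag

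RAB30, siRNA 2, chr11:82979183-82979189: taatagttTGCTGATaatgatat

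RAB30, siRNA 3, chr11:82979677-82979683: ctactaatATATCTGaagtttga

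RAB30, siRNA 3, chr11:82977380-82977386: tcaattaaATATCTGttaattca

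The matches stood in genes that were lower (RAB3B, RAB15, RAB31) and in a gene that was higher (RAB30) in si-SAM68. A match of this length is a description of the sequence, and whether any of these transcripts was bound by a guide was not tested.

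The ends of the coding sequences are shown for the RABs on which the results turn, because they carry the codons of the cysteines that are prenylated. Each line gives the last 8 codons before the stop codon, in GRCh38, with the cysteine codons in capitals.

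RAB3A, chr19:18197473-18197496, minus strand: ccaccgcaccaggacTGCgccTGC

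RAB3B, chr1:51919930-51919953, minus strand: ctgctgcagcagaacTGCtcaTGC

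RAB3D, chr19:11325401-11325424, minus strand: ccccagcccagcagcTGCagcTGC

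RAB15, chr14:64948357-64948380, minus strand: aactcttcgaaaaccTGCtggTGC

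RAB6B, chr3:133828791-133828814, minus strand: gccagcgagggcggcTGCtccTGC

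RAB31, chr18:9859299-9859322, plus strand: atgcaagccagccgccggTGCTGT

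RAB30, chr11:82982168-82982191, minus strand: tatttgactTGTTGTaatttcaac

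RAB3A, RAB3B, RAB3D, RAB15 and RAB6B ended in 2 cysteine codons with another codon between them, RAB31 ended in 2 adjacent cysteine codons, and in RAB30 3 further codons followed the cysteine pair. Over the 61 genes, 20 had the first kind of end, 14 the second and 5 the third. The median log2 fold change was -0.10 over the 17 tested genes with a spaced pair and -0.02 over the 14 with an adjacent pair, and the difference was not tested.

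The libraries held between 52625492 and 82568487 reads on the annotated loci. KHDRBS1 had normalized read counts of 15660.4, 14483 and 14737 in si-CTRL and 583, 602 and 670.2 in si-SAM68, and fell to 4.13% of the control mean (log2 fold change -4.60, SE 0.08, adjusted p = 2.13e-09, limma). One library stood apart, as si-SAM68 replicate 2 had 15.1% of its reads on a ribosomal RNA locus, against 1.83% to 3.17% in the other 5, and where leaving it out changes a call of a named RAB this is said beside the result. VIM and CD44, which are high in this mesenchymal-like line, had mean normalized read counts of 149744 and 57037, whereas the epithelial markers CDH1 and EPCAM had 2.65 and 4.74. The markers of other cells were near 0, with a mean of 0.15 for CD3E of T cells, 1.85 for ALB of hepatocytes and 10.7 for PECAM1 of endothelial cells, the highest of them. The receptor genes PGR and ESR1 were at 0 and 9.11, and the level of ERBB2, also a listed receptor gene, is not given here. None of the 4 markers with enough reads to be tested passed the test.

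The normalized read count is the number of reads on a locus divided by the size factor of its library. To compare levels between genes it was divided by the length of the longest annotated principal transcript, in kb. On this scale the most abundant RABs were RAB1B (8666 per kb over the 6 libraries) and RAB1A (7485), which act between the endoplasmic reticulum and the Golgi, RAB13 (8019) of junctional and polarised traffic, RAB5C (7582) of early endosomes and RAB10 (6781) of exocytosis. The libraries of neighbouring genes in this order overlapped, and these genes could not be ranked against each other. At the other end of the tested genes were RAB40A (6.02 per kb), a RAB with a SOCS box, and RAB33A (13.1), a Golgi RAB. RAB3B was 71.2 per kb and RAB3A 90.1, far below RAB1, RAB5C and RAB10.

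**Figure D1:**
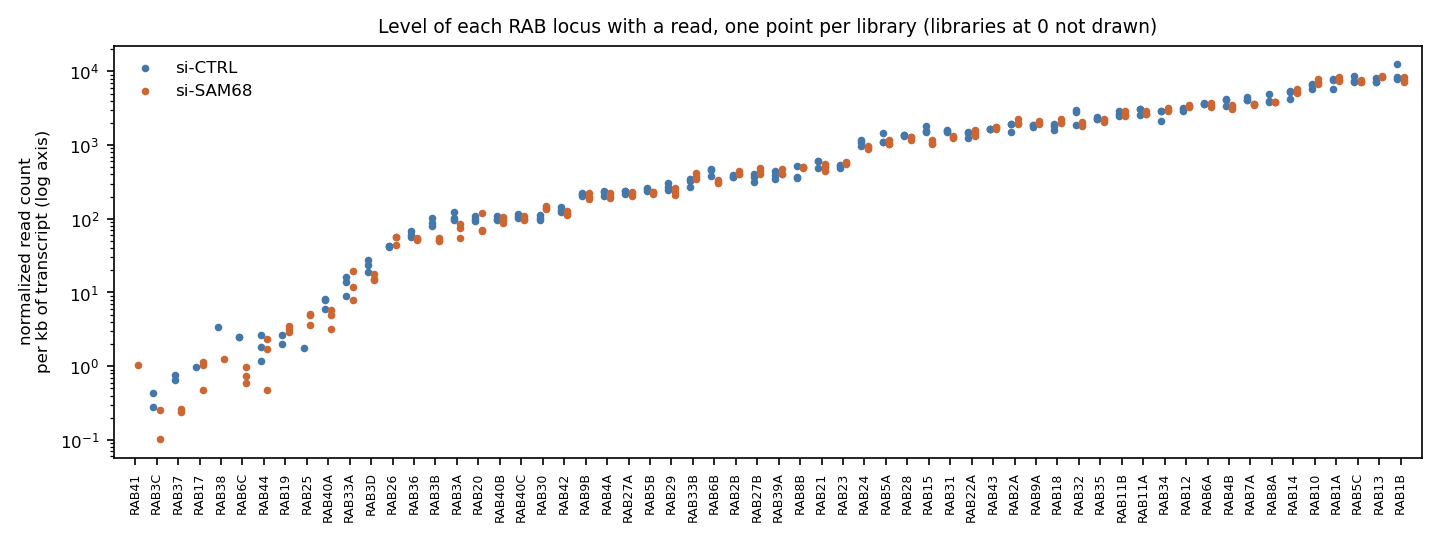
Normalized read count per kb of transcript (log axis) of every RAB locus with a read, ordered by mean, with one point per library in si-CTRL (blue) and si-SAM68 (orange). Levels ran from RAB1B and RAB13 at about the top to loci of a few reads at the left, and the groups lay close to each other along the whole range.

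Of the 10 loci that were not tested, RAB39B had no read in any library and RAB41 had 1 read in all. RAB17, RAB37, RAB38, RAB3C and RAB19 had between 6 and 13 reads over the 6 libraries, and RAB44 and RAB6C had 43 and 23. RAB25, a RAB11 relative known from epithelial cells, had 0, 2 and 0 reads in si-CTRL and 4, 6 and 5 in si-SAM68, which was too few for a test. Among the tested loci, 3 were joined with other genes in the annotation, namely RAB4A with SPHAR, RAB4B with EGLN2 and MIA, and RAB43 with ISY1, and their values are those of the joined locus. A further limit is that 18 of the tested RAB loci overlap another tested locus by position and that the sources used here do not say whether strand was used in counting, so that reads of such pairs cannot be told apart.

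The RABs as a set were at nearly the same level in both groups. Summed over the 61 loci, normalized reads were 266182, 271445 and 272644 in si-CTRL and 262951, 262133 and 278001 in si-SAM68, which is 99.1% of the control mean, and the groups overlapped (exact two-sided permutation p = 0.8, where 3 against 3 libraries allow no less than 0.1). The median log2 fold change over the 51 tested loci was -0.09, against 0.01 over all 18849 loci tested. Of the RAB values 19 were above 0 and 32 below, where all loci had 9591 above and 9258 below. The RAB values ran from -0.79 (RAB3B) to 0.46 (RAB30). In RNA from a whole culture, fewer cells with a transcript and less of it in each cell cannot be told apart.

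Sam68 depletion was accompanied by lower RAB3B, RAB15, RAB6B and RAB31 and by higher RAB30, and 46 of the 51 tested RABs did not pass the test. At an adjusted p-value under 0.05 (limma with Benjamini-Hochberg adjustment over all loci), 1 RAB was higher (1.96%) where 4.47% of all loci were, and 4 were lower (7.84%) where 6.23% of all loci were, shares that are near the background. The thresholds of the study ask for a change of 1.5-fold or more and for an unadjusted p no higher than 0.05. Here and below they were applied to the limma fit and not to the study's own analysis, whose calls can differ. By these thresholds, 0 RABs were higher against a background of 2.83%, and 2 were lower (RAB3B and RAB3A) against 4.83%. An unadjusted p under 0.05 was reached by 14 RABs (27.5%), and by 5086 of the 18849 loci. All si-SAM68 libraries lay above all si-CTRL libraries in 11 RABs (21.6%), where this held for 16.6% of all loci, and below them in 13 RABs (25.5%), where it held for 17.3%. In 48 of the 51 loci (94.1%, against 88.6% of all loci) the change was under 1.5-fold, RAB3B, RAB3A and RAB40A being the exceptions. The compartments used below come from an assigned list of known roles, although some RABs act in several, as RAB15 and RAB31 do. Signs counted by compartment include values near 0, and differences between compartments were not tested.

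**Figure D2:**
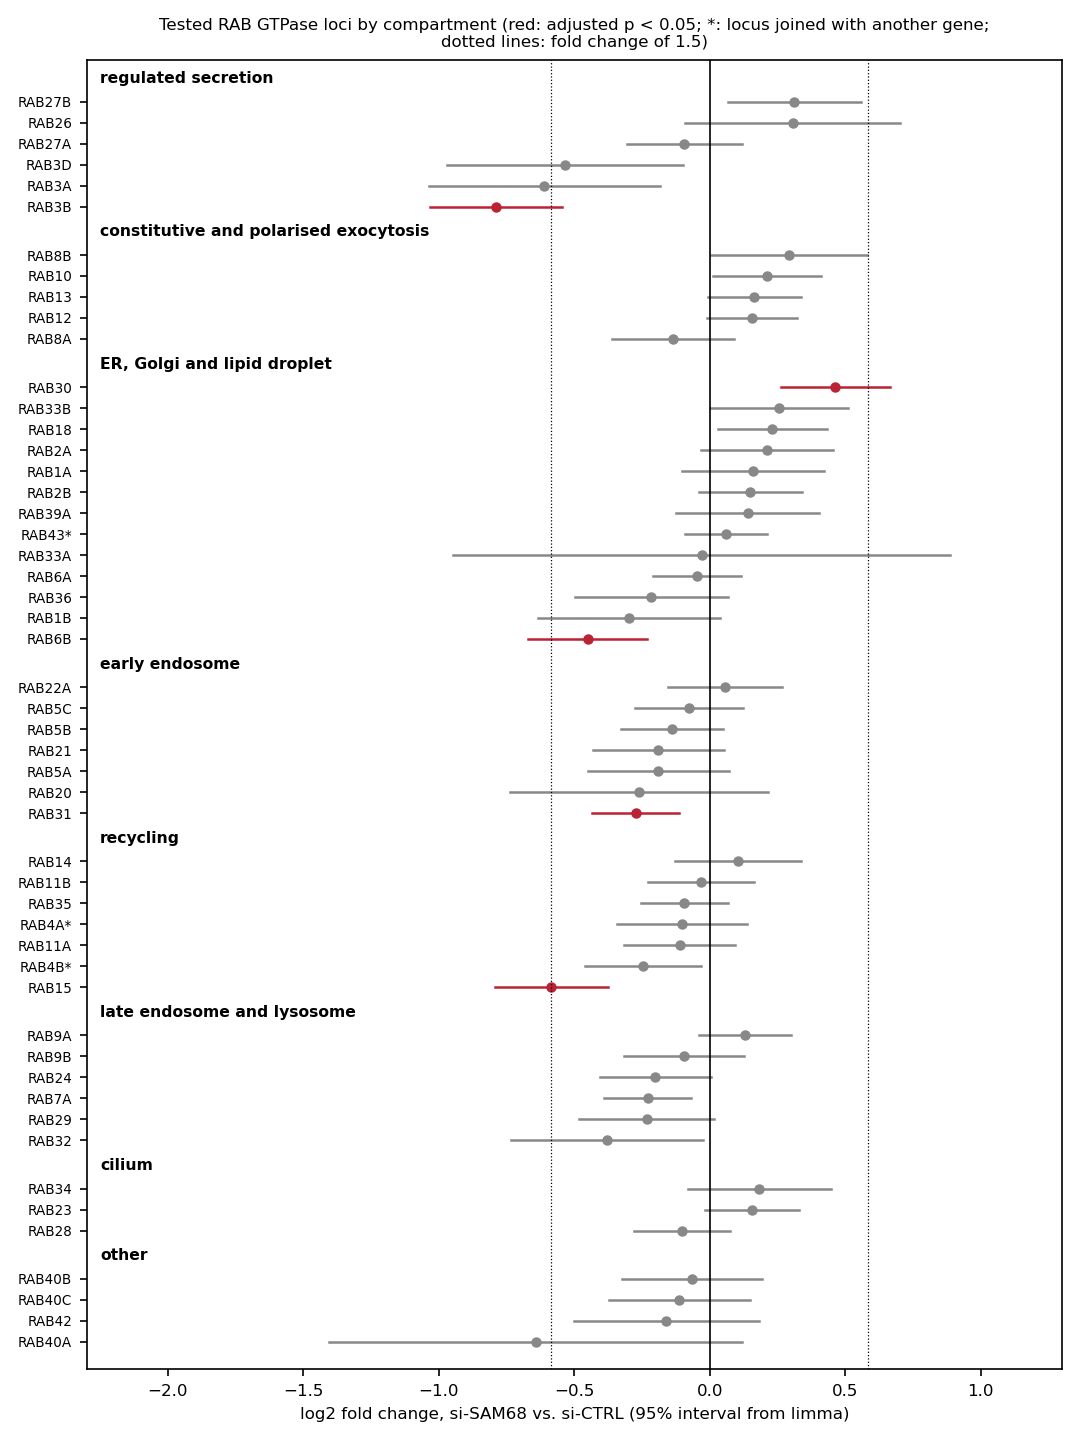
Log2 fold change (si-SAM68 against si-CTRL) of the 51 tested RAB loci by compartment, with points for the limma estimate, bars for its 95% interval, red for an adjusted p under 0.05 and dotted lines at a fold change of 1.5. RAB3B lies farthest to the left of the red points, RAB30 is the red point to the right, and RAB33A and RAB40A, with the fewest reads, have the widest intervals.

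The RABs of regulated secretion, which bring granules and synaptic-like vesicles to the plasma membrane, held the largest change of the family. RAB3B (chr1:52373628-52456436, hg19), a RAB3 of secretory vesicles, had normalized read counts of 1314, 1141 and 1027 in si-CTRL and 642, 706 and 656 in si-SAM68. Every si-SAM68 library was far below every control library, and the 3 si-SAM68 values lay closer together (668 ± 34.1, SD, n = 3) than the controls (1160.4 ± 144). RAB3B fell to 57.6% of the control mean (log2 fold change -0.79, SE 0.11, limma adjusted p = 0.0026). Without si-SAM68 replicate 2 the log2 fold change was -0.83 (adjusted p = 0.011, limma).

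Its paralogs had fewer reads, although RAB3A was at a similar level per kb. RAB3A (chr19:18307611-18314874), the RAB3 of neuronal synaptic vesicles, had normalized read counts of 159, 192 and 147 in si-CTRL and 114, 84.6 and 129.6 in si-SAM68. The groups did not overlap, the log2 fold change was -0.61 (SE 0.19) and the unadjusted p was 0.0095 in limma, so that RAB3A met the thresholds of the study but not the adjusted p (0.070). Without si-SAM68 replicate 2, its lowest library, the log2 fold change was -0.44 (adjusted p = 0.22, limma) and RAB3A no longer met the thresholds of the study. RAB3D, a RAB3 of exocrine and other secretory granules, had 81.2, 116 and 102 in si-CTRL and 64.5, 77.3 and 62.6 in si-SAM68 (log2 fold change -0.53, SE 0.20, adjusted p = 0.11, limma, and -0.63 with an adjusted p of 0.15 without si-SAM68 replicate 2, where it met the thresholds of the study). Its groups did not overlap either, although the lowest control and the highest si-SAM68 library were near each other. RAB3C had 9 reads in all. The RAB3A locus overlaps MPV17L2, whose log2 fold change was -0.21 (adjusted p = 0.13, limma) at 1889 to 2383 normalized reads, and the part of shared reads in the RAB3A value was not tested.

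The 4 RAB3 loci together had 1556, 1453 and 1276 normalized reads in si-CTRL and 820.0, 869 and 850.1 in si-SAM68, a sum that was 59.3% of the control mean. The groups did not overlap (exact two-sided permutation p = 0.1, the smallest that 3 against 3 libraries can give, adjusted p = 0.22 over the 11 paralog sums compared). Such separation was not particular to RAB3, as it held for 5 of the 11 sums (RAB1, RAB2, RAB3, RAB6 and RAB9). Among all tested loci, si-SAM68 lay wholly above the controls in 16.6% and wholly below them in 17.3%. RAB3B accounted for 81.1% ± 3.0 of RAB3 reads in si-CTRL and 78.9% ± 2.14 in si-SAM68 (SD, n = 3), shares that overlapped (exact permutation p = 0.4, in a design that cannot go below 0.1). These shares are of reads without a correction for length, and the RAB3B transcript has 12844 bases against 1528 for RAB3A. The sum therefore mostly follows RAB3B, whereas per kb RAB3A (90.1) and RAB3B (71.2) were at similar levels.

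None of the other tested secretory RABs passed the test. RAB27A, which docks granules and exosome-bearing endosomes, had 742, 826 and 824 in si-CTRL and 739, 711 and 789.8 in si-SAM68 (log2 fold change -0.09, SE 0.10, limma adjusted p = 0.56), and the groups overlapped. RAB27B, its paralog, was named after its values were seen, because its call depends on the pairing of libraries. It had 2272, 2669 and 2927 in si-CTRL and 2929.6, 3270.2 and 3550.0 in si-SAM68, all si-SAM68 libraries above the controls but with the 2 nearest libraries almost level. The log2 fold change was 0.31 (SE 0.11, limma adjusted p = 0.10), and with the replicate number as a block the adjusted p was 0.045. RAB26, another granule RAB, had a log2 fold change of 0.31 (adjusted p = 0.30, limma) at fewer than 100 normalized reads in each library.

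**Figure D3:**
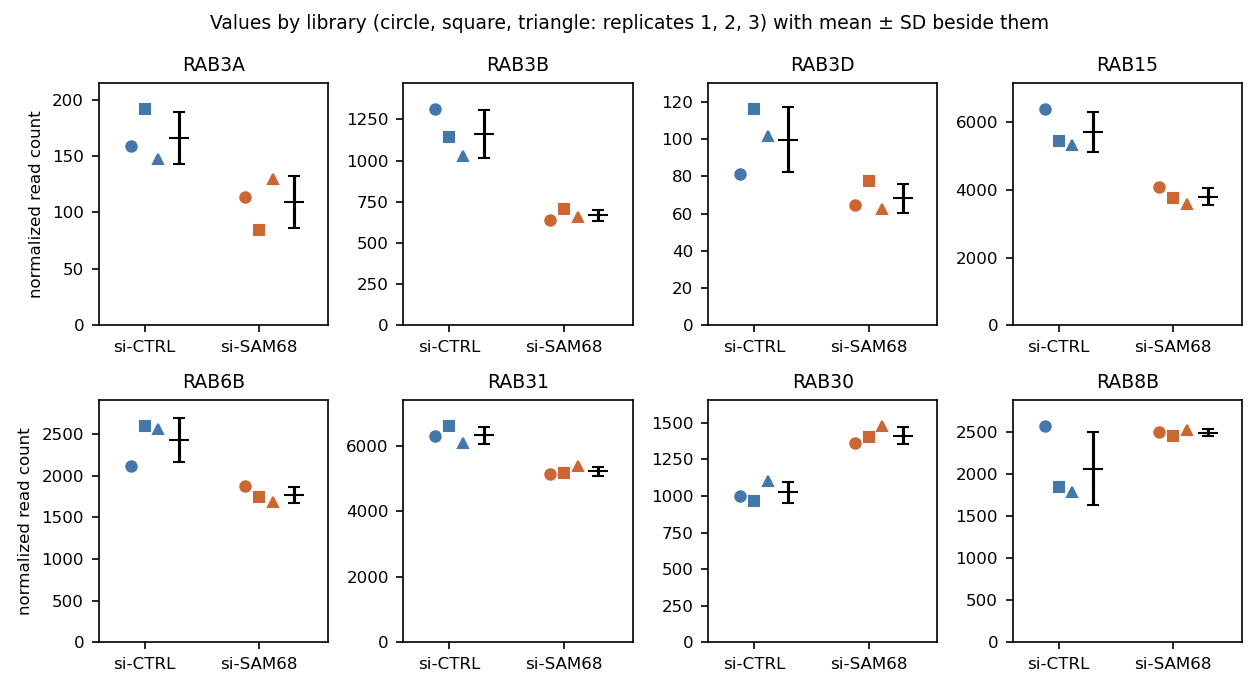
Normalized read counts of 8 RABs in each library (circle, square and triangle for replicates 1, 2 and 3) with the mean ± SD of each group beside the points, on axes that start at 0. The groups are apart in RAB3A, RAB3B, RAB3D, RAB15, RAB6B, RAB31 and RAB30, whereas in RAB8B si-CTRL replicate 1 (2568) lies above all si-SAM68 libraries.

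Among the RABs of recycling endosomes, RAB15 was lower in si-SAM68. RAB15 (chr14:65412532-65438875, hg19), which acts on early and recycling endosomes, had 6400.4, 5446 and 5319.9 normalized reads in si-CTRL and 4079, 3756 and 3590.2 in si-SAM68. The lowest control was well above the highest si-SAM68 library, and RAB15 fell to 66.6% of the control mean (log2 fold change -0.58, SE 0.09, adjusted p = 0.0051, limma, and 0.027 without si-SAM68 replicate 2). This fold change was just short of 1.5, so that RAB15 was not counted by the thresholds of the study. The locus overlaps that of CHURC1 and FNTB, whose log2 fold change was 0.14 (adjusted p = 0.45, limma), in the other direction.

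The remaining 6 tested RABs of recycling did not pass the test, 5 of them with a log2 fold change below 0, and the median of the 7 was -0.10. Without si-CTRL replicate 1, RAB14 went from 0.10 to -0.01 and RAB11B from -0.03 to 0.03. RAB11A, the main RAB of recycling endosomes, had 12699.5, 15088 and 15468 in si-CTRL and 12881, 12862 and 14216 in si-SAM68 (log2 fold change -0.11, SE 0.09, adjusted p = 0.48, limma), and the groups overlapped.

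In early endosomes RAB31 was lower, by a small amount. RAB31 (chr18:9708228-9862553, hg19), a RAB5 relative that acts between the trans-Golgi network and endosomes, had 6285, 6589.9 and 6066 in si-CTRL and 5131, 5150.4 and 5378 in si-SAM68. The groups were clearly separate and the level was 82.7% of the control mean (log2 fold change -0.27, SE 0.07, adjusted p = 0.039, limma). The call was lost with the replicate block (adjusted p = 0.064, limma) and without si-SAM68 replicate 2 (log2 fold change -0.26, adjusted p = 0.16). Of the fits that left out 1 library, only the fit without si-CTRL replicate 1 kept it.

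Of the 7 tested early endosome RABs, 6 had a log2 fold change below 0 and the median was -0.19. Over all tested RABs, 32 of 51 were below 0. Without si-CTRL replicate 1, RAB5C went from -0.08 to 0.01 and RAB22A from 0.06 to -0.02. RAB5A, the RAB of early endosome fusion, had 3716, 2831 and 2808 in si-CTRL and 2601, 2589 and 2948 in si-SAM68 (log2 fold change -0.19, SE 0.12, adjusted p = 0.32, limma), with overlap between the groups and a high value in si-CTRL replicate 1. No other early endosome RAB passed the test.

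The RABs of the endoplasmic reticulum, the Golgi and lipid droplets moved in both directions, with 8 values above 0 and 5 below among 13 tested loci and a median of 0.14. RAB30 (chr11:82684175-82782965, hg19), a RAB of the Golgi, had 1002, 968 and 1105 in si-CTRL and 1359, 1402 and 1477 in si-SAM68. All si-SAM68 libraries were above all controls, and RAB30 was 138% of the control mean (log2 fold change 0.46, SE 0.09, adjusted p = 0.012, limma). Without si-SAM68 replicate 2 the log2 fold change was 0.47 and the adjusted p 0.055. RAB30 was not called without si-SAM68 replicate 3 either.

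RAB6B (chr3:133543079-133614691, hg19), the RAB6 paralog best known from neurons, had 2119.7, 2593 and 2560.1 in si-CTRL and 1878, 1746 and 1680.1 in si-SAM68. The groups did not overlap, and RAB6B fell to 72.9% of the control mean (log2 fold change -0.45, SE 0.10, limma adjusted p = 0.020). Without si-SAM68 replicate 2 the log2 fold change was -0.44 and the adjusted p 0.081. The call was also lost without si-CTRL replicate 2, si-CTRL replicate 3 or si-SAM68 replicate 3. RAB6A, the ubiquitous RAB6 of retrograde and Golgi transport, had 12496, 12077 and 12057 in si-CTRL and 11209.5, 11702 and 12558 in si-SAM68, with overlap (log2 fold change -0.05, SE 0.07, adjusted p = 0.72, limma). RAB6B took 16.6% ± 1.78 of RAB6 reads in si-CTRL and 13.0% ± 1.27 in si-SAM68. RAB1A, which is required for transport from the endoplasmic reticulum to the Golgi, had 14093, 18739 and 19328 in si-CTRL and 18330.0, 18838 and 20563 in si-SAM68 (log2 fold change 0.16, SE 0.12, adjusted p = 0.42, limma), the lowest value being that of si-CTRL replicate 1.

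None of the 5 tested RABs of constitutive and polarised exocytosis passed the test, although 4 of 5 had a log2 fold change above 0 (median 0.16). RAB10, which carries vesicles to the basolateral and plasma membrane and had the highest mean count of the family, had 20217, 22853 and 23627 in si-CTRL and 23947, 25149 and 28029 in si-SAM68. The groups did not overlap, although the nearest libraries were almost level (log2 fold change 0.21, SE 0.09, adjusted p = 0.17, limma). RAB8A, of apical, ciliary and plasma membrane traffic, had 14143, 10934 and 11052 in si-CTRL and 11024, 10704 and 10907 in si-SAM68 (log2 fold change -0.14, SE 0.10, adjusted p = 0.42, limma), and the groups overlapped.

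Late endosome and lysosome RABs gave no call either, with 5 of 6 tested values below 0 and a median of -0.22. RAB7A, the main RAB of late endosomes, had 10084, 9106 and 9316 in si-CTRL and 7975, 8226 and 8089.8 in si-SAM68. The groups were separate at 85.2% of the control mean (log2 fold change -0.23, SE 0.07), but the adjusted p was 0.071 in limma. Of the 3 RABs linked to cilia (RAB23, RAB28 and RAB34) and the 4 tested RABs of other or little-known roles (RAB40A, RAB40B, RAB40C and RAB42), none passed the test. RAB33A of the Golgi, with the lowest mean count among tested loci, had 17.5, 20.3 and 11.4 in si-CTRL and 15.1, 24.8 and 10.1 in si-SAM68, where a difference was not detectable at this depth (log2 fold change -0.03, SE 0.41, adjusted p = 0.97, limma).

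Several further RABs passed the test only when si-CTRL replicate 1 was left out. Over the 51 tested loci si-SAM68 replicate 3 was most often at an extreme (highest of the 6 libraries in 15, lowest in 12), followed by si-CTRL replicate 1 (13 and 10) and si-CTRL replicate 2 (12 and 7). Without si-CTRL replicate 1 there were 3 higher and 8 lower RABs at an adjusted p under 0.05 in limma, against 1 and 4 with it. The calls over all loci also became more frequent without this library, from 4.47% to 7.01% higher and from 6.23% to 8.05% lower. The loci named here were chosen after their values were seen. RAB32, of melanosomes, mitochondria and lysosome-related organelles, had 2262, 3665 and 3406 in si-CTRL and 2333, 2202 and 2499 in si-SAM68. The other controls were far above si-SAM68, and the log2 fold change went from -0.38 (adjusted p = 0.16) to -0.59 (adjusted p = 0.00067) in limma without that library. RAB8B, the paralog of RAB8A, had 2568, 1846 and 1782 in si-CTRL and 2501, 2452 and 2525 in si-SAM68, and went from a log2 fold change of 0.29 (adjusted p = 0.18) to 0.46 (adjusted p = 0.0015, limma). RAB1B, of transport to the Golgi, had 25123, 16926 and 15993 in si-CTRL and 16689, 15158 and 14463 in si-SAM68, and went from -0.30 to -0.09, without passing the test in either case. RAB13, RAB21, RAB4B and RAB3D were the other loci that passed it only without si-CTRL replicate 1, and RAB3B, RAB15, RAB6B, RAB31 and RAB30 passed it with and without.

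Within paralog groups, shares of reads are free of whatever moves both paralogs of a library alike. They are not corrected for transcript length, so that their size does not rank paralogs by level. Over 11 groups 28 shares were compared, and 9 of them did not overlap between si-CTRL and si-SAM68 (exact two-sided permutation p = 0.1 for each, the smallest possible here, and 0.31 after Benjamini-Hochberg adjustment), so that none could pass a threshold of 0.05. Such separation was common in these data. Among all tested loci, the si-SAM68 libraries lay wholly above the controls in 16.6% and wholly below them in 17.3%. The shares of a pair of paralogs add up to the whole, so that the 9 stand for 5 groups (RAB6, RAB8, RAB9, RAB27 and RAB11), and in RAB11 the share is that of RAB25, with 17 reads in all. RAB8B took 15.4%, 14.4% and 13.9% of RAB8 reads in si-CTRL and 18.5%, 18.6% and 18.8% in si-SAM68. Its share was separate in every library, si-CTRL replicate 1 included, and the spread within si-SAM68 was small (14.6% ± 0.75 and 18.6% ± 0.15, SD, n = 3). RAB27B took 75.4%, 76.4% and 78.0% of RAB27 reads in si-CTRL and 79.8%, 82.1% and 81.8% in si-SAM68, without overlap.

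RAB9B, a RAB9 paralog of late endosome to Golgi transport, took 17.8% ± 1.15 of RAB9 reads in si-CTRL and 15.6% ± 0.91 in si-SAM68, without overlap. RAB1B took 64.1%, 47.5% and 45.3% of RAB1 reads in si-CTRL and 47.7%, 44.6% and 41.3% in si-SAM68. These shares overlapped between the groups (exact permutation p = 0.3), although within each of the 3 pairs of libraries with the same number the si-SAM68 share was the lower one. The first control library stood far from the rest.

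**Figure D4:**
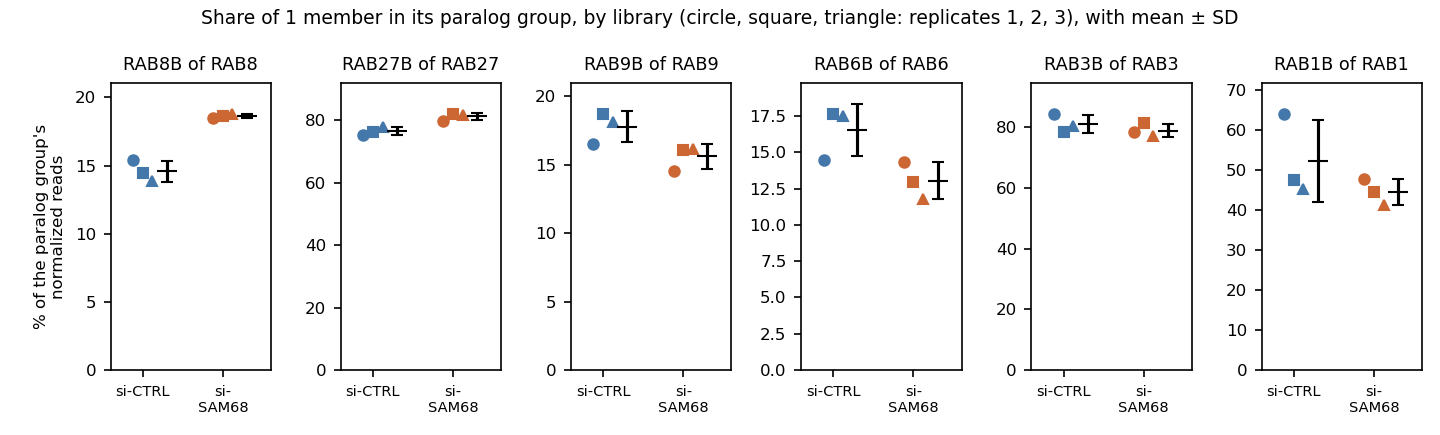
Share of 1 paralog in the normalized reads of its group, in %, by library (circle, square and triangle for replicates 1, 2 and 3), with mean ± SD, on axes that start at 0. RAB8B and RAB27B take larger and RAB6B and RAB9B smaller shares in every si-SAM68 library, RAB3B and RAB1B overlap, and si-CTRL replicate 1 stands apart in RAB1B.

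Partners of the RABs were taken from 4 lists of known regulators and effectors, 171 genes in all, of which 160 were tested. Some partner loci are joined with other genes, such as DENND2C with BCAS2, TBC1D24 with ATP6V0C and MICAL1 with ZBTB24. Their values are those of the joined locus and enter the counts and medians of the lists. At an adjusted p under 0.05, 11 were higher (6.88%) and 11 were lower (6.88%), where the backgrounds were 4.47% and 6.23%, and the median log2 fold change was -0.02. The RABs themselves, with 1 higher and 4 lower of 51, had a median of -0.09.

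The 10 tested genes of prenylation and the membrane cycle had 1 higher and 2 lower. RABGGTA, the alpha subunit of the prenyl transferase of RABs, had 1862, 1458 and 1571 in si-CTRL and 1254, 1222 and 1233 in si-SAM68, without overlap, and fell (log2 fold change -0.39, adjusted p = 0.038, limma). CHML, a RAB escort protein, rose (log2 fold change 0.34, adjusted p = 0.0498, limma, just under the threshold). Its paralog CHM, chosen after its values were seen, had a log2 fold change of -0.003 and did not pass the test.

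Of 53 tested exchange factors 1 was higher and 2 were lower. DENND5A, an exchange factor of RAB6 and RAB39, had 5306, 4633 and 4517 in si-CTRL and 3333, 3616 and 3381 in si-SAM68, without overlap (log2 fold change -0.48, SE 0.09, adjusted p = 0.0083, limma). RAB3IL1, an exchange factor of RAB3A and RAB8, fell by 0.37 on the log2 scale (adjusted p = 0.049, limma, and 0.069 with the replicate block). DENND4C, an exchange factor of RAB10, rose, with a log2 fold change of 0.45 (adjusted p = 0.016, limma).

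Among 40 tested TBC domain and RAB3GAP proteins 3 were higher and 2 lower. TBC1D25, a regulator of RAB33B in autophagy, fell most (260.0, 184 and 222 in si-CTRL against 137, 149 and 134, log2 fold change -0.65, SE 0.16, adjusted p = 0.029, limma, and 0.051 with the replicate block). TBC1D2B rose (log2 fold change 0.53, adjusted p = 0.0043, limma), as did TBC1D22B (0.42, adjusted p = 0.0081) and EVI5, which binds RAB11 (0.38, adjusted p = 0.040). RAB3GAP1, the catalytic subunit of the complex that acts on RAB3, had a log2 fold change of 0.21 and did not pass the test (adjusted p = 0.13, limma).

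Of 57 tested effectors 6 were higher and 5 lower. SYTL1 and SYTL2, synaptotagmin-like proteins that bind RAB27 and tether granules, both rose. SYTL1 had 216, 221 and 243 in si-CTRL and 353, 299.9 and 375 in si-SAM68 (log2 fold change 0.59, SE 0.13, adjusted p = 0.019, limma), and SYTL2 had 1155, 1409 and 1417 in si-CTRL and 1969.5, 1848 and 2038 in si-SAM68 (log2 fold change 0.56, SE 0.10, adjusted p = 0.0088, limma). In both genes every si-SAM68 library was above every control. Other RAB27 binders of the list, named after their values were seen, went in different directions. EXPH5 rose (log2 fold change 0.41, adjusted p = 0.042, limma, and 0.052 with the replicate block). UNC13D and MYRIP had log2 fold changes of 0.10 and -0.001 and did not pass the test. MYRIP had only 82 reads in all (SE 0.41), so that a change could hardly be detected. MLPH, which links RAB27A to myosin on melanosomes and shares its locus with a microRNA gene, fell (log2 fold change -0.35, adjusted p = 0.022, limma), and SYTL4 and SYTL3 had log2 fold changes of -0.18 and -0.05 (adjusted p = 0.17 and 0.83). BICD1, a dynein adaptor bound by RAB6, had 1579.8, 1308 and 1249 in si-CTRL and 914, 1074 and 941 in si-SAM68 (log2 fold change -0.49, SE 0.11, adjusted p = 0.023, limma). RIMS2, an active zone protein bound by RAB3, fell, with a log2 fold change of -0.45 (adjusted p = 0.041, limma, and 0.065 with the replicate block). Without si-SAM68 replicate 2, SYTL1, SYTL2, BICD1, DENND5A and TBC1D2B still passed the test among the regulators and effectors named here, and the others did not. Of these, only TBC1D2B passed whichever library was left out (highest adjusted p = 0.034, limma). The highest adjusted p of such fits was 0.0996 for SYTL1, 0.059 for SYTL2, 0.106 for BICD1 and 0.052 for DENND5A.

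**Figure D5:**
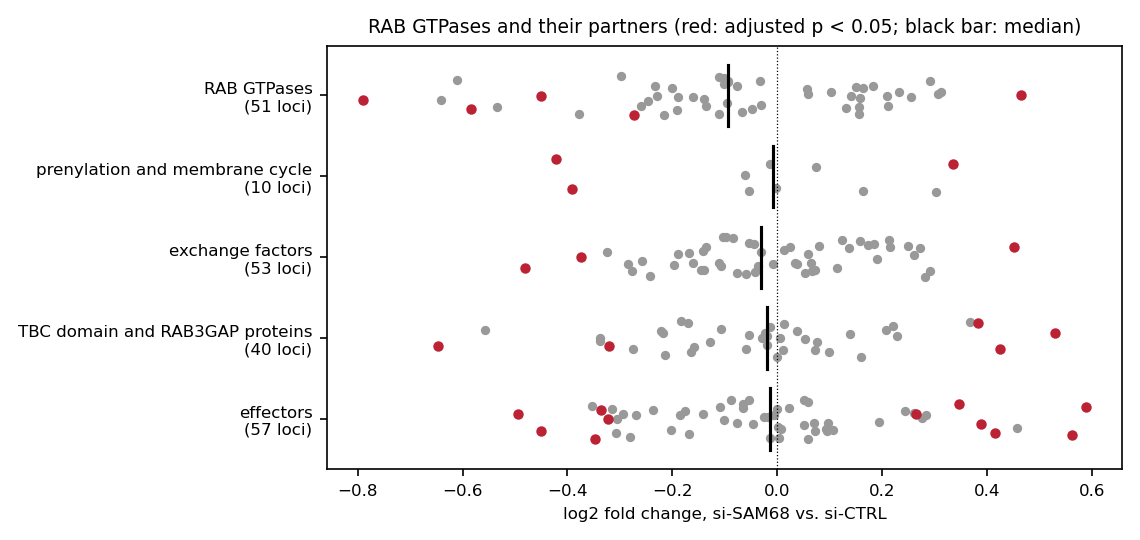
Log2 fold change (si-SAM68 against si-CTRL) of each tested RAB locus and of each tested gene in 4 lists of RAB partners, with red points for an adjusted p under 0.05 and a black bar for the median of each list. The red RAB points lie below 0 except RAB30, whereas the partner lists have red points on both sides of 0.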

How the data were processed

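In the deposited table each value is a normalized signal made by the authors, the reads counted on a FAST DB locus (build hg19) over the size factor that the library received from DESeq2. The submitters' processing notes name STAR 2.4.0, SAMtools, Picard and FastQC. The counting program and its strand setting are not given in the sources used here. The labels name a stranded kit for polyadenylated RNA. All values (100%, tolerance 0.01) were whole multiples of 1 step per library, and these were taken as reads. No other column was used.

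Loci with a mean of at least 10 were tested (18849) on log2(normalized read count + 1) with limma 3.58.1 (R 4.3.3; lmFit, eBayes with trend), with Benjamini-Hochberg adjustment over all loci, so that fold changes are on that scale and are understated for low loci. On the recovered reads edgeR 4.0.16 (quasi-likelihood) called 859 loci higher and 1167 lower, and DESeq2 1.42.0 called 1248 and 1541. Paralog shares and sums were compared with exact permutation tests in scipy 1.17.1. Other alternatives were pseudocounts, filters, TMM and quantile scaling, no trend, a replicate block, and each library left out. The programs were tested on simulated counts.

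Libraries of the same number deviated together from their group means (r = 0.11, 0.23 and 0.13, against -0.13 to 0.01 for different numbers), so the numbers appear to pair the libraries. The main limma fit and the permutation tests treated the libraries as unpaired. The smallest permutation p of 0.1 holds for unpaired libraries, and no paired permutation was run. Blocked values stand beside a result where they change its call. Nothing says that the libraries came from separate cultures, and p-values measure the spread between these libraries, which may be technical. With 3 libraries per group precision is limited.

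Named RABs are those called, their paralogs, RAB1A, RAB5A, RAB7A, RAB8A, RAB11A and RAB27A, and those with the highest and lowest tested mean. Named partners are the 4 with the largest change in each list among those called, 1 of which is not reported here. The members and lists were chosen with earlier results of these data known. Sequences are from GENCODE on GRCh38 and from the study's list of siRNAs, and locus positions are those of the deposited table (hg19). RAB genes of 1 group are similar in sequence and could share reads. Of the effectors, RUBCN was not matched.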

Additional observations from a re-analysis of the deposited data

How the results depend on the processing

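RAB3B and RAB15 were lower at an adjusted p under 0.05 in all 17 alternatives to the limma fit, and RAB30 was higher in 15. The number of RABs called was 1 higher and 4 lower. It was 2 lower with eBayes without trend, 2 higher and 3 lower with the replicate block and with edgeR with the block (chosen after seeing the data), and 7 lower with DESeq2, which added RAB32, RAB3A and RAB7A. Leaving out 1 library gave 0 to 3 higher and 2 to 8 lower, the 3 and the 8 without si-CTRL replicate 1, and 0 higher without si-SAM68 replicate 2 or 3. The calls over all loci moved too, between 223 and 1322 higher and between 402 and 1517 lower without 1 library. By the thresholds of the study, 2 RABs were lower, 2 to 4 without 1 library, 0 at a fold change of 2, and 1 was higher with no filter. RAB3B was among the lower ones in every fit at a fold change of 1.5, and RAB15 took the place of RAB3A with quantile scaling and without si-CTRL replicate 2, as did RAB3D without si-SAM68 replicate 2. Of the RAB partners, 11 were higher and 11 lower. These became 6 and 7 with no filter, 4 and 1 without trend, 17 and 19 with DESeq2, and 2 to 19 and 0 to 11 without 1 library. RAB33A, which passed no test, changed sign to 0.03, 0.13 and 0.26 without si-CTRL replicate 1, si-CTRL replicate 2 and si-SAM68 replicate 3, and to 0.047 with edgeR, its range without 1 library being -0.35 to 0.26. The replicate block changed no call of a named gene other than those given for RAB31, RAB27B, RAB3IL1, TBC1D25, EXPH5 and RIMS2. The median of all loci moved by at most 0.01 (log2) under any scaling. The cause of these differences was not tested. Depth limits loci such as RAB33A and RAB40A, at about 100 reads over 6 libraries.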
